A study of Mus musculus with 10 samples.

Results

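The transcriptome of adipocyte precursors (APs) was compared between cultures incubated with interleukin-4 (IL-4) and control cultures on day 4. It was measured by mRNA sequencing of poly-A RNA in 6 of the 10 samples of the series, 3 control cultures (replicates 1 to 3) and 3 IL-4 cultures (replicates 4 to 6), chosen as all samples of the mRNA-seq experiment. The other 4 samples are small RNA libraries and were not used here. All 6 cultures were grown from mouse subcutaneous white adipose tissue of the C57BL/6J strain. Cells positive for CD45 (leukocytes) and CD31 (endothelial cells) were depleted, SCA-1-positive cells were then selected, and IL-4 was the only agent that differed between the groups according to the labels. These are primary cultures selected by surface markers and not a clonal line. The paper describes 3 replicates per group for mRNA sequencing without saying whether each came from separate animals. The p-values therefore measure the spread between these cultures.

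IL-4 is a type 2 cytokine made by T helper 2 cells, eosinophils and innate lymphoid cells, which are present in adipose tissue. It binds the IL-4 receptor alpha chain (Il4ra), which pairs with the common gamma chain (Il2rg) on blood cells or with Il13ra1 on stromal cells, and the associated Janus kinases phosphorylate the transcription factor STAT6. APs are fibroblast-like stromal cells that proliferate, lay down collagen and can become adipocytes under the control of PPARγ and C/EBPα. In macrophages, the same cytokine is known for raising arginase 1 and chitinase-like proteins.

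The libraries held 28526779 to 28674597 expected counts in controls and 28914008 to 29057784 with IL-4, so that depth did not differ much between the groups. The correlation of log2 counts was at least 0.988 between libraries of the same group and at most 0.946 between the groups. Some libraries stood apart within their group. IL-4 replicate 6 had a median log2 deviation from the other IL-4 libraries of 0.40 for transcripts under 1000 bases and -0.50 for transcripts over 8000 bases. Control replicate 3 deviated the same way, by 0.18 and -0.26. The median log2 fold change between the groups also ran from 0.14 in the shortest to -0.13 in the longest transcripts. Control replicate 3 also held more reads of strongly induced genes than the other controls (77 reads of Chil3, against 4 and 9). The part of RNA quality or of carry-over between libraries in these differences was not tested, and the counts of all calls without both libraries are given below.

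**Figure D1:**
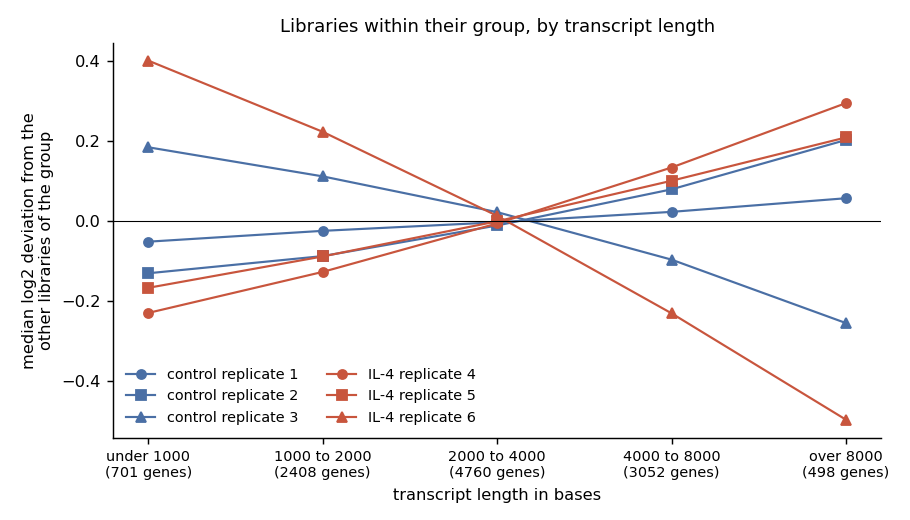
Median log2 deviation of each library from the mean of the other libraries of its group (vertical axis), by transcript length in bases (horizontal axis, with the number of genes), with 1 line per library. Control replicate 3 and IL-4 replicate 6 slope down from 0.18 and 0.40 in the shortest transcripts to -0.26 and -0.50 in the longest.

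The promoters of the genes that rose most were read for the palindrome that STAT proteins bind, since STAT6 is known to favour TTC and GAA with any 4 bases between them, and other STATs the form with any 3. The windows covered 250 bases before to 50 after each promoter's start in RefSeq (GRCm38.p6), and a gene can have several. A palindrome reads the same on both strands, so that 1 search covers both, and a match of either form may overlap a match of the other. Among the 12 genes with the largest rises, 11 had an entry, and 5 of those held a match wholly before a start. Matches that reached past the start were not counted for these genes, whereas the shares given below cover the whole window. The stretches around each match are shown because these genes carry the largest changes of the comparison, and capitals mark the match.
Retnla, chr16:48842439-48842498, plus strand, 145 to 136 bases before the start: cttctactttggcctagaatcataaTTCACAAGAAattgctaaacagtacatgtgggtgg
Pdcd1lg2, chr19:29410812-29410871, plus strand, 82 to 73 bases before the start: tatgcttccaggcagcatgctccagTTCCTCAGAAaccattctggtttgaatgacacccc
Chil3, chr3:106167703-106167761, minus strand, 172 to 164 bases before the start: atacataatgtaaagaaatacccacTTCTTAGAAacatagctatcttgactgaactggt
Chil4, chr3:106219646-106219704, minus strand, 200 to 192 bases before the start: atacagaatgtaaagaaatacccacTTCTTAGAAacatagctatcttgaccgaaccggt
Col6a5, chr9:105960819-105960877, minus strand, 209 to 201 bases before the start: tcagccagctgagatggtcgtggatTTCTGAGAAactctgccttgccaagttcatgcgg

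Retnla and Pdcd1lg2 hold the form with 4 bases between the half-sites, and Chil3, Chil4 and Col6a5 the form with 3. The start used for Col6a5 is not the gene's outermost one. Its stretch lies inside the span of the gene (chromosome 9 from 105856070 to 105962463). The stretches of the neighbouring paralogs Chil3 and Chil4 were identical at 56 of 59 bases, the match included. Of all 32851 promoters in the table, 6.95% hold the form with 4 bases, 8.30% the form with 3 and 14.6% either. Genes without an entry were left out of the counts by gene, which covered 11077 of the 14009 genes tested. They covered 595 of the 809 upregulated and 575 of the 737 downregulated genes. Counted by gene, with a match in any of its promoters, the shares were 8.91%, 8.57% and 16.8% in upregulated genes (595). They were 6.78%, 9.74% and 15.8% in downregulated genes (575) and 6.48%, 8.24% and 13.9% in the other tested genes (9907). Matches in this window were thus frequent in every class. A match is a description of these letters and not a bound site.

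After 4 days with IL-4, many genes had changed in both directions. The groups were compared on expected counts by the quasi-likelihood test of edgeR, and every adjusted p below is its p after Benjamini-Hochberg adjustment. A gene is called higher or lower at an adjusted p under 0.05, and upregulated or downregulated when it also changed over 2-fold. Of 14009 genes tested, 2663 were higher (19.0% of all tested) and 2582 were lower (18.4%). Over 2-fold, 809 genes were upregulated (5.77%) and 737 were downregulated (5.26%). Between cultures of a group, the biological coefficient of variation was 0.0939. Without control replicate 3 and IL-4 replicate 6, the same test gave 835 upregulated and 730 downregulated genes, and 3576 higher and 3520 lower.

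The rises reached further than the falls. Among called genes, 169 rose and 47 fell by over 3 on the log2 scale, and 61 rose and 6 fell by over 5. The upregulated genes held 5.51% to 5.71% of all counts in control libraries and 15.4% to 16.6% in IL-4 libraries. The downregulated genes held 5.16% to 5.36% and 1.62% to 1.83%. The calls of genes with small changes depended on how libraries were scaled. The median log2 fold change of all genes was 0.0026 with TMM scaling and -0.17 with library totals, where 1704 genes were higher and 4963 lower. FPKM are scaled to library totals, so an equal FPKM in both groups can go with a small called rise. Among the 411 genes with a mean over 10000 normalized counts, 32.6% were higher and 17.0% lower.

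**Figure D2:**
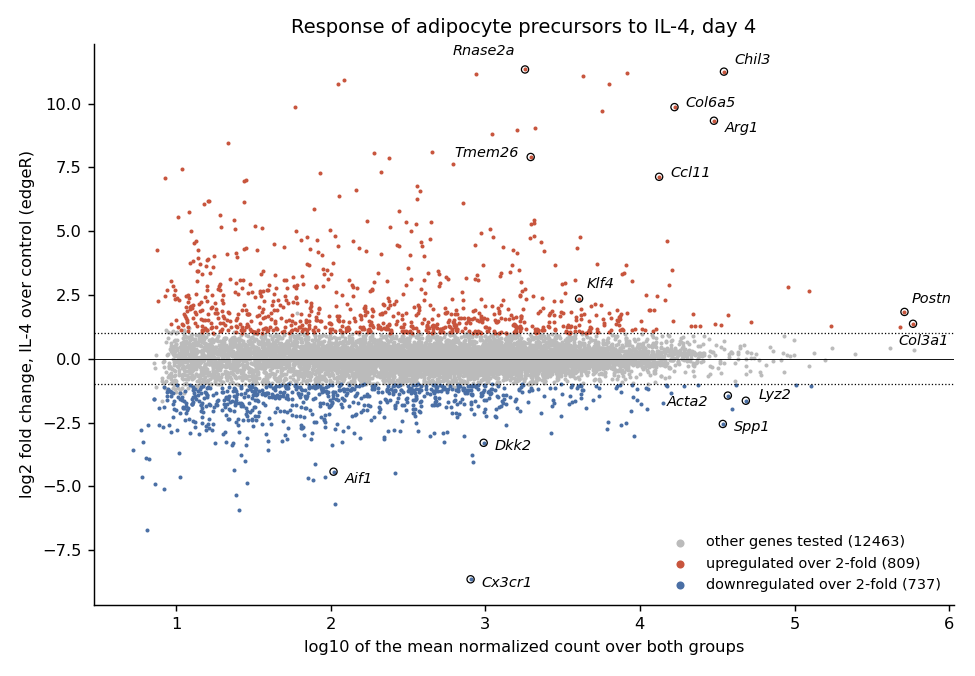
Log2 fold change of IL-4 over control (vertical axis, edgeR) against the log10 of the mean normalized count of both groups (horizontal axis) for the 14009 genes tested, with 809 upregulated genes in red and 737 downregulated genes in blue. Rises extend above 10 and falls to -8.65, and the fitted values of genes with almost no control reads depend on the prior count.

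The largest rises were in genes that were nearly silent in controls. They encode effector proteins of type 2 immunity, the decoy receptor of IL-13, a homeobox transcription factor, a collagen chain and a carbonic anhydrase. Arg1 (Entrez gene 11846, chromosome 10 from 24915207 to 24927470) encodes arginase 1, which splits arginine into ornithine and urea. Its reads numbered 64, 62 and 169 in controls against 50213, 52187 and 68770 after IL-4. Its mean FPKM went from 2.42 ± 1.5 to 1384 ± 241 (SD, n = 3 each), and its log2 fold change was 9.33 (SE 0.39, adjusted p = 1.18e-06). Without control replicate 3, the highest control, the log2 fold change was 9.96. Every IL-4 library exceeded every control library by over 100-fold in reads, and Arg1 became 1 of the 10 genes with the largest gain in FPKM.

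The chitinase-like genes Chil3 (Ym1) and Chil4 (Ym2) and the resistin-like gene Retnla encode secreted proteins that mark type 2 responses in mice. Retnla had 2, 2 and 18 reads in controls and 10118, 10274 and 15331 with IL-4 (log2 fold change 10.79, SE 0.41). Chil3 had 4, 9 and 77 reads in controls and 58293, 64612 and 75844 with IL-4 (11.26, SE 0.63). The highest control was replicate 3 in each of these genes, and without it the log2 fold changes were 12.59 for Retnla and 13.43 for Chil3. Chil4 had 0, 1 and 21 reads in controls and 13092 to 19735 with IL-4. Neither Chil3 nor Chil4 has whole expected counts. Reads were therefore shared between related genes, and the separate levels of this pair are uncertain.

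Other genes had so few control reads that only a limit or a ratio of reads can be given. Pdcd1lg2, which encodes the PD-1 ligand PD-L2, had no control read, and 206, 209 and 214 reads after IL-4. Set against a floor of 3 counts per control library, it was at least 77.8-fold higher (adjusted p = 3.41e-06). Ear2, an eosinophil-associated ribonuclease, also had no control read and was read 199, 215 and 275 times, at least 85.0-fold higher, with reads shared with related genes. Rnase2a, of the same ribonuclease family, had 1, 0 and 3 control reads and 2895, 3109 and 4274 with IL-4. The homeobox gene Msx3 had 0, 0 and 2 control reads and 1499, 1582 and 1838 with IL-4. The ratio of summed normalized reads was 2740 for Msx3, with an exact binomial 95% interval of 757 to 22600 that covers counting error only. For Rnase2a it was 2860 (1120 to 10500).

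The membrane-bound carbonic anhydrase Car4 had 0, 1 and 11 reads in controls and 7488, 7593 and 9293 with IL-4. The lectin gene Mgl2 (10, 11 and 21 against 9393, 9970 and 12742 reads) and its relative Clec10a (18, 26 and 30 against 319, 340 and 484) encode galactose-type receptors of macrophages and dendritic cells. Their log2 fold changes were 9.72 (SE 0.22) and 4.09 (SE 0.23), and the expected counts of both are not whole. Il13ra2 (chromosome X from 147383478 to 147429192) encodes the receptor that traps IL-13. It had 10, 4 and 11 reads in controls and 3952, 3776 and 4212 with IL-4 (log2 fold change 9.03, SE 0.16, adjusted p = 5.02e-08). The IL-4 libraries lay close together in this gene, and control replicate 3 did not stand out in it.

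The largest fall was in Cx3cr1 (chromosome 9 from 120048683 to 120068296), the receptor of fractalkine on monocytes and macrophages. It had 1484, 1725 and 1853 reads in controls but 3, 3 and 5 after IL-4, which gives a log2 fold change of -8.65 (SE 0.18, adjusted p = 6.90e-08). Trem1, an activating receptor of myeloid cells, had 212 to 230 reads in controls and 3 to 5 with IL-4. Clec4e (the receptor Mincle), Aif1 (Iba1), Coro1a (a leukocyte actin regulator) and Tnf also fell, with log2 fold changes of -4.48, -4.43, -4.03 and -3.25. Among the rest of the 12 largest falls, Dkk2, a secreted Wnt antagonist, had 1830, 1792 and 1973 reads in controls and 162, 178 and 172 with IL-4 (log2 fold change -3.29, SE 0.07). The remaining ones were C1qtnf3, an adipokine gene (-3.78), Pdlim3 (-3.36), Arap3 (-3.25), Inpp4b (-3.16) and the chemokine Ccl4 (-3.12).

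**Figure D3:**
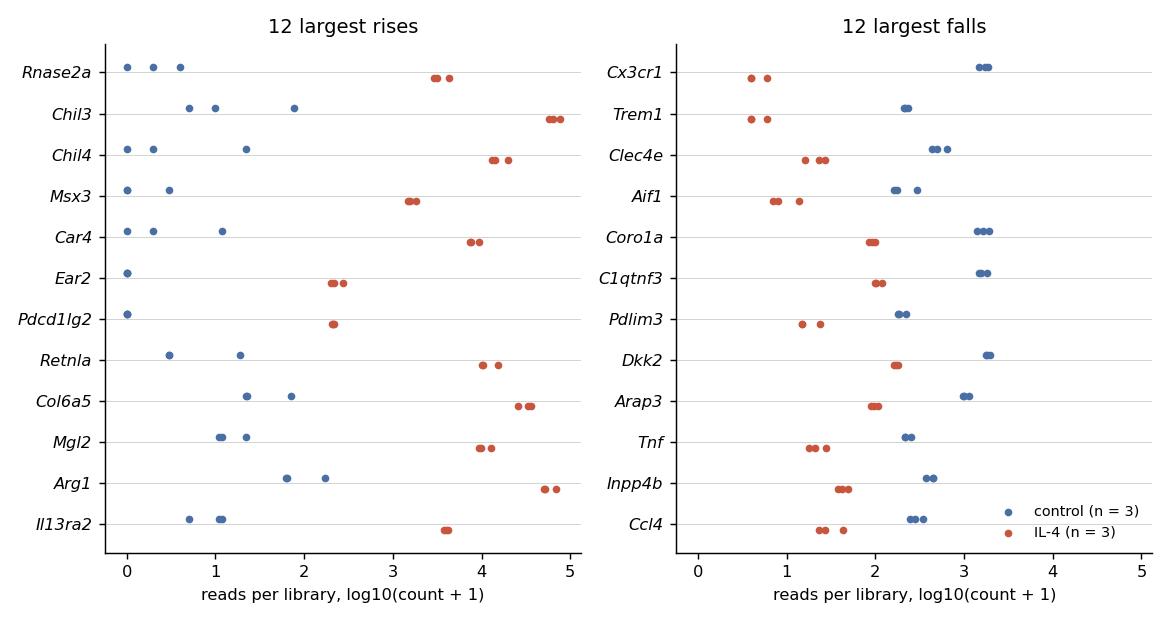
Reads per library as log10(count + 1) (horizontal axis) for the 12 largest rises (left) and the 12 largest falls (right), with 3 control libraries in blue and 3 IL-4 libraries in red. The groups do not overlap in any of the 24 genes, as the choice of genes required. Control replicate 3 is the high control point of Chil3, Chil4, Car4, Retnla, Arg1, Col6a5 and Mgl2, among others.

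The 10 largest gains by amount of mRNA rather than fold were in Postn, Col3a1, Chil3, Fn1, Col6a1, Arg1, Col6a2, Lox, Ccl11 and Retnla, in this order. Postn, which encodes the matrix protein periostin, went from 2643, 2692 and 2725 FPKM to 8673, 8579 and 8375, the largest gain in FPKM of the genes considered. Col3a1 (collagen III) went from 2181 ± 26.5 to 5001 ± 180 FPKM, Fn1 (fibronectin) from 1301 ± 182 to 2767 ± 609, and Lox (lysyl oxidase) from 795 ± 37.4 to 1736 ± 191 (SD, n = 3 each). The largest losses were in Lyz2, the lysozyme of myeloid cells, from 2738 ± 422 to 776 ± 141 FPKM, and in Spp1 (osteopontin), from 1589 ± 248 to 240 ± 40.0. Housekeeping and cytoskeletal genes were also among them. The log2 fold changes of the ferritin chain Fth1, of Actb and of Tmsb4x were -0.64, -0.50 and -0.53.

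Lists of genes with a common role were then counted, and the background for each count is the share of all genes tested (19.0% higher, 18.4% lower). The lists were chosen with earlier results of these data known, so their shares are descriptions and were not tested. Among the lists with at least 5 tested members, those with the largest shares of higher genes were genes known to rise with IL-4 in macrophages and genes that process collagen. Those with the largest shares of lower genes were macrophage lineage markers, cholesterol synthesis, mural cell markers and contractile genes, followed by DNA replication genes and Schwann cell markers with equal shares. Most other lists had members that moved both ways.

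**Figure D4:**
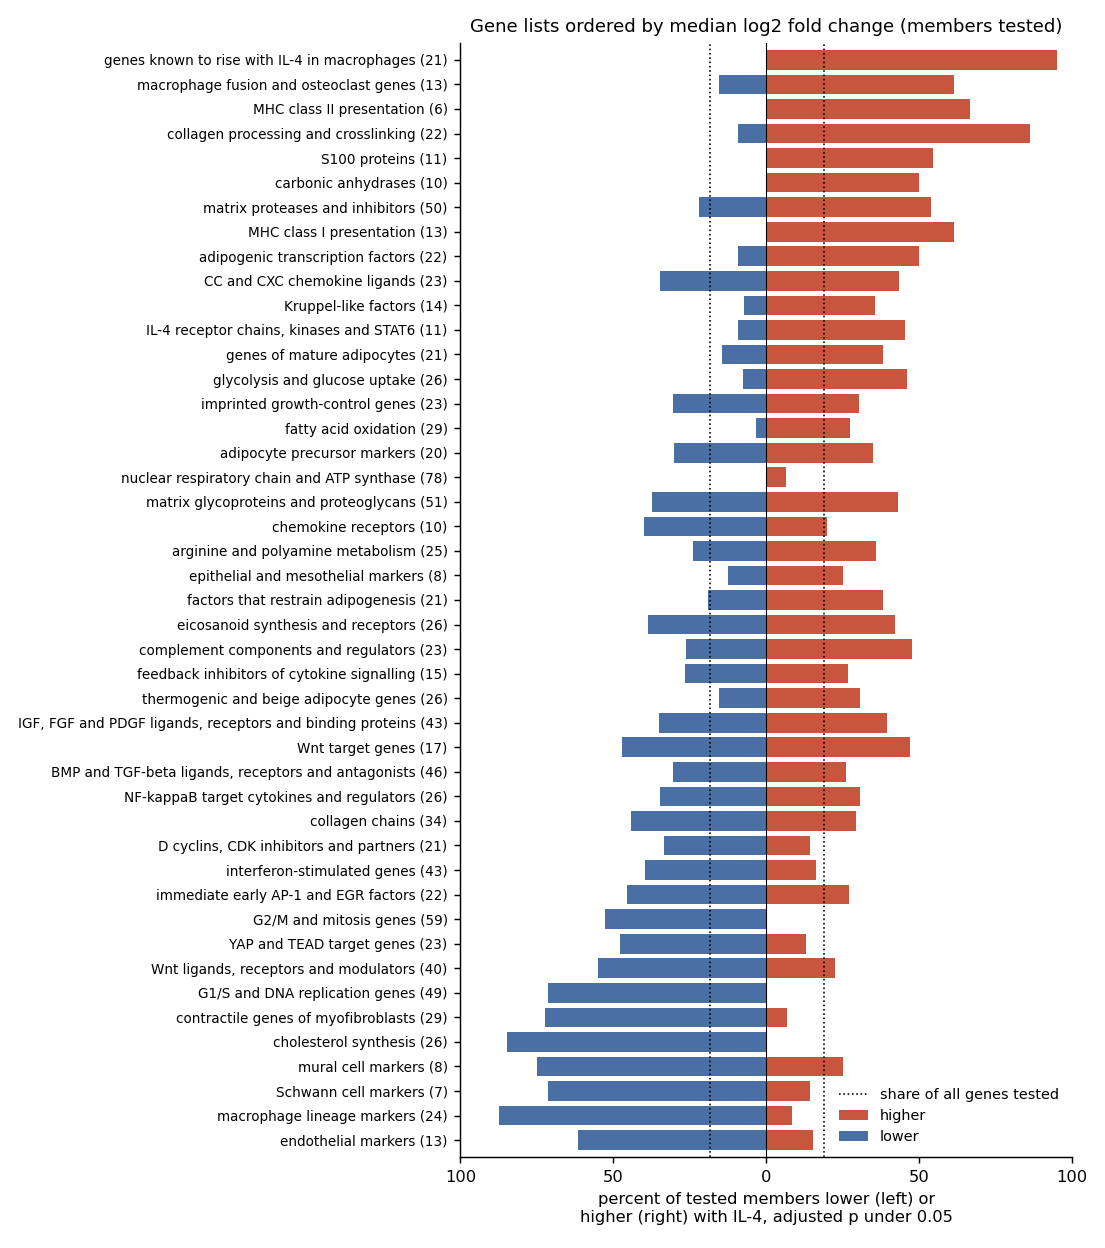
Percent of tested members higher (red, right) or lower (blue, left) with IL-4 at an adjusted p under 0.05 for each gene list with at least 5 tested members, ordered by median log2 fold change. Dotted lines mark the shares among all genes tested (19.0% and 18.4%), and the bars run from 95.2% higher in IL-4 genes of macrophages to 87.5% lower in macrophage lineage markers.

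Of the 11 genes for IL-4 receptor chains, kinases, adaptors and STAT6, 5 were higher and 1 was lower (median log2 fold change 0.18). Without control replicate 3 and IL-4 replicate 6, and without the latter alone, 8 were higher and 2 lower, and without any other single library 3 and 1. Il13ra2 was the only one over 2-fold. Irs1, the adaptor that links the receptor to PI3 kinase, had 1578 to 1765 reads in controls and 2594 to 3102 with IL-4 (log2 fold change 0.94, SE 0.09, adjusted p = 0.000134). Jak2 was higher (0.58), and Jak3, the kinase of the gamma chain, was lower (-0.82) with counts that are not whole. The signal-transducing chains stood near their control levels. Il4ra had 88.5 ± 0.98 FPKM in controls and 89.5 ± 3.27 with IL-4, and Il13ra1 20.9 ± 0.23 and 20.9 ± 0.33 (SD, n = 3 each). Both carried a small call (log2 fold changes 0.19 and 0.17, adjusted p = 0.0378 for both). Both calls were lost with library totals (adjusted p = 0.819 and 0.987) and without any single library except IL-4 replicate 6 (0.0819 to 0.122). Stat6 had 40.9 ± 1.08 and 37.1 ± 1.26 FPKM (log2 fold change 0.03, adjusted p = 0.717).

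Among 15 feedback inhibitors of cytokine signalling, 4 were higher and 4 lower (median 0.01), and 4 and 7 with library totals. The changes over 2-fold were in Cish, Socs1 and Ptpn6. Cish, an inhibitor that STAT proteins induce, had 229, 227 and 226 reads in controls and 2371, 2553 and 2889 with IL-4 (log2 fold change 3.67, SE 0.08). Socs1, which blocks Janus kinases, had 126, 95 and 124 reads and then 785, 899 and 1162 (3.19, SE 0.17). Socs3 was lower by 0.39. Ptpn6 (SHP-1), a phosphatase of blood cells, fell from 25.8 ± 3.33 to 7.55 ± 1.04 FPKM (log2 fold change -1.60). Socs2 did not pass the test (-0.19, adjusted p = 0.105).

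Of 26 genes known to rise with IL-4 in macrophages, 21 were tested, 20 were higher, 18 of them over 2-fold, and none was lower (median log2 fold change 4.09). The exception among those tested was Socs2. Ccl17, Ccl22, Alox15 and Cd209a had too few reads for a test, and Ear11 was not listed. Alox15, a lipoxygenase that IL-4 is known to induce in macrophages, had 6, 7 and 7 reads in controls and 3, 6 and 5 with IL-4. Besides the genes above, Cdh1 (E-cadherin) had 33 to 42 reads in controls and 673 to 737 with IL-4 (log2 fold change 4.42, SE 0.11). Mrc1 (the mannose receptor CD206) was already at 93.4 ± 10.6 FPKM in controls and reached 146 ± 10.9 (log2 fold change 0.82). The summed FPKM of the list went from 1386 to 1716 in controls to 7733 to 8139 with IL-4, most of which was Fn1, Chil3, Arg1 and Retnla.

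Genes of macrophages were read in all cultures although CD45-positive cells had been depleted. Ptprc, which encodes CD45 itself, had 2506, 2796 and 2798 reads in controls and 1216, 1263 and 1195 with IL-4 (log2 fold change -0.99, SE 0.07, adjusted p = 1.87e-05). Of the 24 macrophage lineage markers, all tested, 21 were lower, 11 of them over 2-fold, and 2 were higher (median -0.97). Their summed FPKM was 5362 to 6971 in controls and 2355 to 3218 with IL-4, and none of the markers was at 0. The falls were unequal. The complement gene C1qa went from 488 ± 92.9 to 189 ± 41.7 FPKM and the receptor Csf1r from 92.8 ± 8.81 to 39.7 ± 0.43, while Adgre1 (F4/80) went from 55.0 ± 5.01 to 41.2 ± 1.12 (SD, n = 3 each). Adgre1 lost its call without control replicate 2 or 3 or IL-4 replicate 4 or 5 (log2 fold change -0.17 without control replicate 3, adjusted p 0.0630 to 0.0897 over the 4).

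Cd53 and Ctss (cathepsin S) were the markers that were higher, by 0.85 and 0.79 on the log2 scale, and Cd68 did not pass the test (0.38, adjusted p = 0.0572). In bulk cultures, fewer cells of a type and less RNA per cell cannot be told apart. The part of these cells in the rise of Arg1, Chil3, Retnla and the other IL-4 genes of macrophages was not tested.

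Markers of other cells were at lower summed levels than those of macrophages. Of 13 tested endothelial markers, 8 were lower and 2 higher. Cdh5 (VE-cadherin) fell from 3.38 ± 0.04 to 0.99 ± 0.17 FPKM, Pecam1 (CD31) had 2.38 ± 0.15 and 1.84 ± 0.25 (adjusted p = 0.235, or 0.0394 with library totals), and Vwf rose from 0.80 ± 0.11 to 5.97 ± 0.82. The summed endothelial FPKM was 20.4 to 21.2 in controls and 18.4 to 20.2 with IL-4. Of 8 mural cell markers, 6 were lower, and Ndufa4l2 and Cox4i2 were higher. The summed FPKM of the mural list nonetheless rose, being 68.7 to 82.3 in controls and 129 to 175 with IL-4. Schwann cell markers were lower in 5 of 7, with Sox10 at 5.11 ± 0.50 and 1.88 ± 0.19 FPKM. Of 15 lymphocyte markers, 3 were tested, and Cd3d, Cd3e, Cd3g and Ncr1 were not listed in any library. Il7r was higher and Cd4 lower. Of the mast cell and eosinophil markers, 2 of 10 were tested. The mast cell tryptase Tpsab1 had 0, 3 and 0 reads in controls and 31, 46 and 54 with IL-4. Its ratio of summed normalized reads was 48.6 (exact binomial 95% interval 16.3 to 239, which covers counting error only). Epithelial and mesothelial markers were lower in 1 and higher in 2 of 8.

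Genes of arginine and polyamine metabolism did not move as a block. Besides Arg1, the arginine transporter Slc7a2 rose from 9.27 ± 0.83 to 67.1 ± 7.45 FPKM (log2 fold change 3.03, SE 0.12). Nos2, the inducible nitric oxide synthase that competes for arginine, had 22, 11 and 12 reads and then 128, 178 and 163 (3.52, SE 0.25). Odc1, which makes putrescine from ornithine, was lower by 0.50, and Ass1 did not pass the test (0.17, adjusted p = 0.101). In all, 9 of 25 were higher and 6 lower (median 0.08). Of 10 tested carbonic anhydrases, 5 were higher and none lower, but only Car4 by over 2-fold.

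Chemokine genes split sharply. Of 23 tested CC and CXC ligands, 10 were higher and 8 lower, and all 8 lower ones fell over 2-fold. Ccl11 (eotaxin, which draws eosinophils) had 161, 170 and 264 reads in controls and 23981, 22505 and 28688 with IL-4 (log2 fold change 7.13, SE 0.20). Ccl24 (eotaxin-2) had 2, 0 and 2 reads in controls and 305, 374 and 393 with IL-4. Its ratio of summed normalized reads was 298 (exact binomial 95% interval 116 to 1100, which covers counting error only). Ccl8 went from 30.2 ± 2.37 to 548 ± 130 FPKM (log2 fold change 4.36). In the other direction, Cxcl14 fell from 40.1 ± 4.17 to 7.20 ± 0.29 FPKM. The interferon-induced Cxcl9 and Cxcl10 fell as well (-2.23 and -2.07).

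The direction differed between neighbouring chemokine genes on chromosome 11, which were picked for their positions after their values were seen. Between 82035577 and 82116799 lie Ccl2, Ccl7, Ccl11, Ccl12 and Ccl8, and all 5 were higher, by 0.80, 1.57, 7.13, 1.45 and 4.36. Further along, between 83572917 and 83664683, Ccl9 and Ccl6 were higher by 1.73 and 3.33, and the macrophage inflammatory proteins Ccl3 and Ccl4 were lower (-2.82 and -3.12). Ccl3 had 382, 389 and 522 reads in controls and 46, 46 and 72 with IL-4. The log2 fold changes of these neighbours thus ranged from -3.12 to 7.13. Of 10 tested chemokine receptors, Ackr1 and Ackr3 (scavenging receptors) were higher, and Cx3cr1, Cxcr3 and Cxcr4 were among the lower ones.

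Inflammatory lists moved both ways. Of 26 tested NF-κB target cytokines and regulators, 8 were higher and 9 lower (median -0.11), and 7 and 14 with library totals. Tnf had 214, 215 and 252 reads in controls and 27, 17 and 20 with IL-4, and Il1rn, the IL-1 receptor antagonist, fell from 24.4 ± 0.50 to 5.12 ± 0.14 FPKM. Vcam1, an adhesion molecule, rose from 52.0 ± 1.49 to 104 ± 2.23 FPKM. Il6 was called higher with overlapping groups (46 to 60 and 53 to 94 reads, adjusted p = 0.0485). The call was lost with DESeq2 (adjusted p = 0.0543), with library totals (0.110) and without any single library except IL-4 replicate 4 (0.0758 to 0.139). Of 43 interferon-stimulated genes, 17 were lower and 7 higher (median -0.18), and the transcription factor Irf8 was among the lower ones (-1.16).

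Antigen presentation genes were higher or not called. Of 13 MHC class I genes, 8 were higher and none lower (median 0.36), and H2-K1 went from 105 ± 10.6 to 178 ± 24.3 FPKM. With library totals the count was 5 higher and 1 lower. Of 6 tested class II genes, 4 were higher over 2-fold. The invariant chain Cd74 had 50, 55 and 51 reads in controls and 349, 330 and 502 with IL-4 (log2 fold change 3.07, SE 0.18). H2-Aa had 1 to 3 control reads and 24 to 26 with IL-4.

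In the complement system, 11 of 23 genes were higher and 6 lower. The central component C3 had 1174, 1292 and 1319 reads in controls and 15459, 14667 and 12859 with IL-4 (log2 fold change 3.66, SE 0.10). The lower members included the C1q chains, which are also on the macrophage list, and the receptor C5ar1, which fell by 2.11. Of 26 genes of eicosanoid synthesis and receptors, 11 were higher and 10 lower, and 10 and 11 with library totals. The constitutive cyclooxygenase Ptgs1 rose from 9.85 ± 0.42 to 26.2 ± 1.89 FPKM while the inducible Ptgs2 fell from 3.84 ± 0.05 to 1.67 ± 0.27. The prostaglandin E2 receptor Ptger2 rose by 2.88 and the prostaglandin D2 synthase Hpgds fell by 2.18.

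Of 13 tested genes of macrophage fusion and osteoclasts, 8 were higher and 2 lower (median 1.91). Atp6v0d2, a proton pump subunit needed for macrophage fusion, had 461, 391 and 451 reads in controls and 4580, 4700 and 5592 with IL-4 (log2 fold change 3.67, SE 0.10). Ocstamp went from 2 to 5 reads to 48 to 68. Acp5 (tartrate-resistant acid phosphatase) rose by 3.13 and Ctsk (cathepsin K) by 1.91. Tnfrsf11a (RANK) and Nfatc1, which drive osteoclast formation, were lower.

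AP markers held up in sum, with 1786 to 1839 FPKM in controls and 1743 to 1892 with IL-4. Of 20 markers, 7 were higher and 6 lower (median 0.13), and 7 and 8 with library totals. Pi16, a marker of early adventitial precursors, had 47, 50 and 50 reads in controls and 682, 646 and 829 with IL-4 (log2 fold change 4.02, SE 0.12). Cd34 had 230, 211 and 268 and then 2187, 1994 and 2315 reads (3.35, SE 0.10). Ly6a, which encodes the SCA-1 used to select the cells, rose from 120 ± 11.7 to 245 ± 40.4 FPKM (log2 fold change 1.2, SE 0.12), with counts that are not whole. Pdgfra was higher by 0.54 and Pdgfrb lower by 0.66. Dpp4 had 33 to 60 reads in controls and 54 to 59 with IL-4 and did not pass the test (0.47, adjusted p = 0.145, or 0.0463 without control replicate 2). Thy1, at 366 ± 12.4 and 362 ± 29.8 FPKM, did not pass it either.

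**Figure D5:**
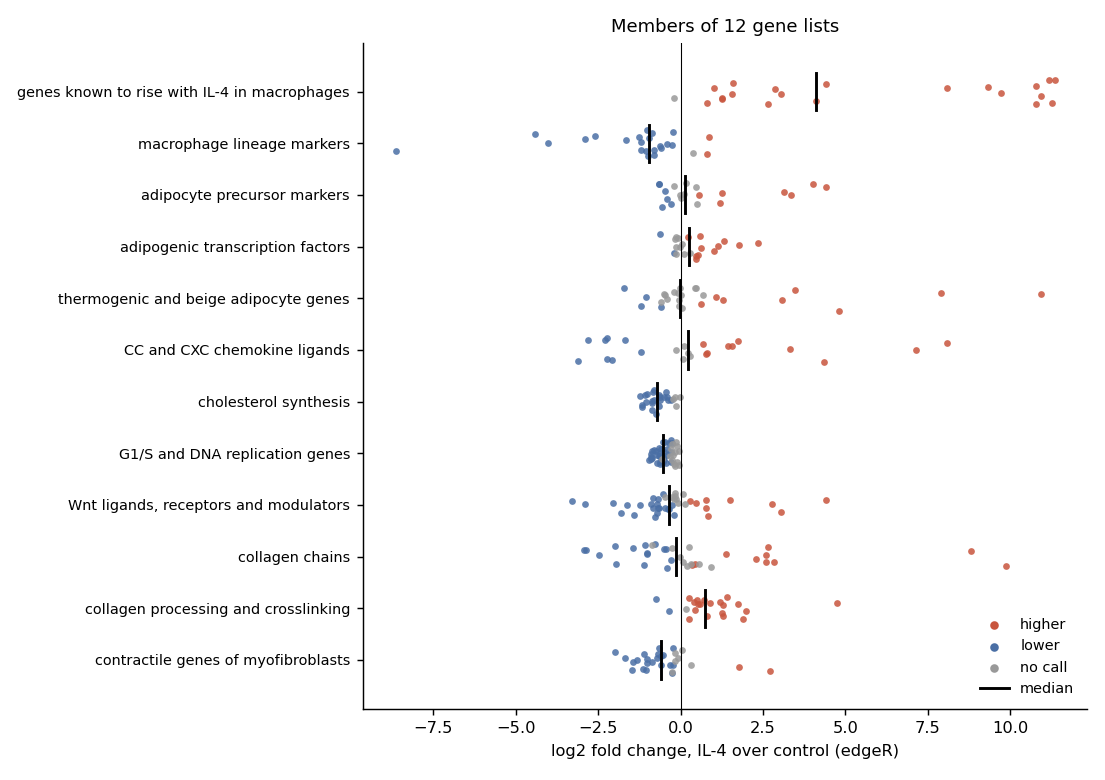
Log2 fold change of each tested member of 12 gene lists (horizontal axis, edgeR), with members called higher in red, lower in blue and without a call in grey, and the list's median as a black bar. Cholesterol synthesis, DNA replication and contractile genes lie mostly left of 0 (medians -0.71, -0.53 and -0.60), IL-4 genes of macrophages to the right (4.09), and collagen chains and chemokines on both sides.

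Of 22 tested adipogenic transcription factors, 11 were higher and 2 lower (median 0.25), and 10 and 6 with library totals. Klf4, a zinc finger factor that acts early in adipogenesis, had 1407, 1397 and 1358 reads in controls and 6142, 6134 and 6946 with IL-4 (log2 fold change 2.36, SE 0.06, adjusted p = 1.64e-07). Pparg, the master regulator of adipocytes, had 300, 280 and 290 reads and then 827, 804 and 1018. The oxysterol receptor Nr1h3 (LXRα) went from 2.23 ± 0.04 to 4.97 ± 0.45 FPKM, and Cebpa was higher by 0.47. Zfp423, which commits cells to the adipocyte lineage, was lower by 0.62 (adjusted p = 0.0232). That call was lost without control replicate 1 or 2 or IL-4 replicate 4 or 5, and Cebpe had too few reads for a test. Of 21 factors that restrain adipogenesis, 8 were higher and 4 lower. With library totals 6 were higher and 9 lower, and without control replicate 3 and IL-4 replicate 6 it was 9 and 7.

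Genes of mature adipocytes were tested in 21 of 30 members, of which 8 were higher and 3 lower (median 0.17), and 7 and 6 with library totals. The higher ones included fatty acid uptake genes. Lpl (lipoprotein lipase) went from 160 ± 2.19 to 469 ± 34.0 FPKM with counts that are not whole, the fatty acid transporter Cd36 from 40.4 ± 0.60 to 101 ± 7.01, and the fatty acid binding protein Fabp4 from 34.8 ± 3.28 to 66.1 ± 11.9 (SD, n = 3 each). Genes that define fully differentiated adipocytes were near 0. Adiponectin (Adipoq) had 0, 0 and 3 reads in controls and 13, 9 and 10 with IL-4, and Lep, Cidec and Retn were not listed.

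Thermogenic and beige adipocyte genes included some of the largest rises and a majority without a call. Of 26 tested, 8 were higher and 4 lower (median -0.01). The higher ones included Ear2, described above, which the paper also uses as a beige marker. It is counted among the IL-4 genes of macrophages too. Tmem26 (chromosome 10 from 68723746 to 68782655), a surface marker of beige cells, had 13, 14 and 24 reads in controls and 3871, 3769 and 3461 with IL-4. The amino acid transporter Slc36a2 had 7, 1 and 7 and then 129, 116 and 138 reads, and Tnfrsf9 (CD137) 17, 10 and 22 and then 141, 188 and 161. Their log2 fold changes were 4.79 (SE 0.32) and 3.47 (SE 0.24). Adrb3, the adrenergic receptor that starts thermogenesis, went from 17 to 19 reads to 33 to 44. Ppargc1a, which the paper uses as a beige marker, had 7, 9 and 1 reads in controls and 57, 42 and 32 with IL-4 (3.07, SE 0.48). Its mean level stayed low, at 0.03 FPKM in controls and 0.24 with IL-4. Ebf2 was higher by 0.62. Ucp1, the uncoupling protein, had too few reads for a test, as had Cidea. Pdk4 fell by 1.19.

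Energy metabolism changed little next to these genes, and its small shifts depended on scaling and on the libraries that stood apart. Fatty acid oxidation had 8 higher and 1 lower of 29 (median 0.13), 0 and 5 with library totals, 1 and 1 without control replicate 1 or 2, and 12 and 3 without control replicate 3 and IL-4 replicate 6. Nuclear genes of the respiratory chain and ATP synthase had 5 higher and none lower of 78, and 2 and 4 with library totals. Without IL-4 replicate 6 they had 6 higher and 8 lower, and without control replicate 3 and IL-4 replicate 6 they had 14 and 8. Glycolysis and glucose uptake had 12 higher and 2 lower of 26, 5 and 7 with library totals, 7 and 1 without control replicate 1 or 2, and 18 and 3 without control replicate 3 and IL-4 replicate 6. No direction is given for these 3 lists.

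Cholesterol synthesis, the pathway that SREBP-2 controls, fell as a group. Of 26 genes, 22 were lower, 6 of them over 2-fold, and none was higher (median -0.71). Hmgcs1, an early enzyme of the pathway, had 7365, 7616 and 7251 reads in controls and 3308, 3046 and 3074 with IL-4 (log2 fold change -1.08, SE 0.06, adjusted p = 7.35e-06). Idi1 went from 37.0 ± 2.38 to 13.9 ± 1.16 FPKM (-1.23, SE 0.09). Squalene epoxidase Sqle was also lower (-0.62). With library totals 25 were lower, and without control replicate 3 and IL-4 replicate 6, 24 were.

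Genes of the cell cycle were lower in large numbers and by small amounts. Of 49 G1/S and DNA replication genes, 35 were lower and none higher (median -0.53), and none changed over 2-fold. Mcm5, part of the replicative helicase, had 1504, 1600 and 1802 reads in controls and 790, 816 and 747 with IL-4 (log2 fold change -0.90, SE 0.08). Thymidine kinase Tk1 fell by 0.90 as well. Of 59 G2/M and mitosis genes, 31 were lower and none higher (median -0.26), and 47 and none with library totals. The proliferation marker Mki67 went from 35.0 ± 2.67 to 19.2 ± 4.03 FPKM (-0.69, SE 0.16), with IL-4 replicate 6 the lowest. Cyclin A2 (Ccna2) did not pass the test (-0.16, adjusted p = 0.0769). Without control replicate 3 and IL-4 replicate 6, 41 of the G1/S genes and 37 of the G2/M genes were lower.

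Among the regulators of G1, cyclin D1 (Ccnd1) had 5962, 6582 and 6341 reads in controls and 2434, 2496 and 2316 with IL-4 (log2 fold change -1.23, SE 0.07, adjusted p = 5.31e-06). Cyclin D3 (Ccnd3) was lower by 0.42, and cyclin D2 (Ccnd2) did not pass the test (-0.30, adjusted p = 0.0802). The inhibitor Cdkn2b (p15) also fell (-1.01). Cdkn1c (p57) and Myc were higher by 0.47 and 0.33, but both lost their call with library totals (adjusted p = 0.0531 and 0.198), and Myc also without control replicate 1 or 2. In all, 3 of 21 were higher and 7 lower. With library totals none was higher and 11 were lower, and without control replicate 1 or 2 it was 1 higher and 6 lower.

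Wnt ligands, receptors and modulators were lower in 22 and higher in 9 of 40 (median -0.36), with large changes both ways. Wnt2 had 17, 4 and 10 reads in controls and 167, 215 and 221 with IL-4 (log2 fold change 4.42, SE 0.30), and the receptor Fzd4 went from 6.07 ± 1.56 to 15.3 ± 4.39 FPKM. The stem cell receptor Lgr5, which binds R-spondins, fell from 7.39 ± 0.64 to 0.87 ± 0.10 FPKM with counts that are not whole. Fzd6 had 147, 169 and 155 reads in controls and 57, 63 and 39 with IL-4 (-1.41, SE 0.18). Of 17 Wnt target genes, 8 were higher and 8 lower. With library totals the count was 4 higher and 9 lower, without control replicate 2 it was 4 and 7, without control replicate 1 or 3 it was 5 and 7, and without IL-4 replicate 5 it was 5 and 8. Axin2, a feedback target, was higher by 1.74, while Wisp1 and Tcf7 were lower (-1.62 and -2.25). Targets of YAP and TEAD were lower in 11 and higher in 3 of 23 (median -0.36), with Ctgf going from 209 ± 8.44 to 66.0 ± 2.58 FPKM and Cyr61 from 189 ± 0.95 to 81.8 ± 2.68.

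Immediate early genes were lower in 10 and higher in 6 of 22. The AP-1 subunit Jun had 3032, 3113 and 3131 reads in controls and 10468, 10473 and 10792 with IL-4 (log2 fold change 1.93, SE 0.05), and Atf3 was higher by 2.08. Egr1 (-0.83), Egr3 (-2.15), Nr4a1 (-1.90) and the ERK phosphatase Dusp6 (-1.83) were lower. Fos did not pass the test (0.12, adjusted p = 0.317). The members of this list therefore did not share a direction. Of 14 Krüppel-like factors, 5 were higher and 1 lower, with Klf4 and Klf9 (1.12) over 2-fold.

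Growth factor lists were mixed as well. Of 46 BMP and TGF-β genes, 12 were higher and 14 lower, and 10 and 25 with library totals. The BMP antagonist Chrdl1 rose from 1.24 ± 0.08 to 14.1 ± 0.80 FPKM and the activin antagonist Fst fell from 13.6 ± 0.34 to 3.86 ± 0.16. Of 43 IGF, FGF and PDGF genes, 17 were higher and 15 lower, and 12 and 17 with library totals. The binding protein Igfbp5 had 3138, 2635 and 2566 reads in controls and 31168, 27803 and 24892 with IL-4 (log2 fold change 3.49, SE 0.13), while Igfbp4 was lower by 0.92. Imprinted growth-control genes were higher in 7 and lower in 7 of 23, and in 4 and 8 with library totals. The neighbours H19 and Igf2 were higher by 1.49 and 0.99, and Mest fell by 1.24. Of 11 genes tested whose symbol begins with S100, which includes the binding protein S100pbp, 6 were higher, among them S100a6 (0.61), and none lower. S100a4 did not pass the test (-0.50, adjusted p = 0.0526). It was called lower with DESeq2 (adjusted p = 0.0121), library totals (0.0171) and limma on log2(FPKM + 1) (0.0201), and without IL-4 replicate 6 (0.000539).

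The collagen genes changed in composition. Of 34 chains tested, 10 were higher and 15 lower (median -0.14), and the summed FPKM went from 10218 to 10757 in controls to 15455 to 17288 with IL-4. The largest rises were in chains of collagen VI, although not in all of them. Col6a1 had 35571, 35103 and 36883 reads in controls and 209466, 205312 and 193133 with IL-4 (log2 fold change 2.65, SE 0.07), and its neighbour on chromosome 10, Col6a2, was higher by 2.83. Their 3 relatives on chromosome 9, between 105689417 and 106096828, were nearly silent in controls. Col6a5 had 21, 22 and 70 reads in controls and 36131, 32974 and 25631 with IL-4 (9.87, SE 0.39, and 10.66 without control replicate 3). Col6a6 had 3 to 7 and 1326 to 2524 reads. Col6a4 reached only 0.27 FPKM. Col6a3, another main chain of collagen VI, had 38188, 39836 and 33142 reads in controls and 45758, 42970 and 29873 with IL-4. The groups overlapped through IL-4 replicate 6 alone, the library that deviated most in long transcripts. Col6a3 did not pass the test (0.25, SE 0.17, adjusted p = 0.284). The expected counts of Col6a5 and Col6a6 are not whole.

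The fibrillar chains Col1a1 and Col1a2 were higher by 0.33 and 0.43, and Col1a1 lost its call with library totals and without control replicate 2 or 3 or IL-4 replicate 5. The basement membrane chains Col4a1 and Col4a2 fell (-1.03 and -1.08). Col8a1 fell from 76.8 ± 6.10 to 12.2 ± 1.71 FPKM (-2.48, SE 0.13) and Col12a1 from 196 ± 25.6 to 44.7 ± 13.1, with IL-4 replicate 6 the lowest. The enzymes that process and crosslink collagen rose more evenly, with 19 of 22 higher and 2 lower (median 0.75). Plod2, a lysyl hydroxylase, went from 102 ± 1.62 to 303 ± 15.4 FPKM with counts that are not whole. Pcolce2, an enhancer of procollagen cleavage, had 130, 157 and 157 reads in controls and 3462, 3394 and 3785 with IL-4 (4.74, SE 0.09). Loxl1, which acts on elastin, was lower by 0.35, and elastin itself (Eln) fell by 1.78.

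Matrix glycoproteins and proteoglycans were higher in 22 and lower in 19 of 51, and in 20 and 22 with library totals. Sparcl1 had 152, 150 and 166 reads in controls and 2767, 2744 and 2646 with IL-4 (log2 fold change 4.28, SE 0.07). Thrombospondin 1 (Thbs1) fell from 1105 ± 116 to 461 ± 88.0 FPKM, and tenascin C (Tnc) was lower by 0.48, a call lost without control replicate 1 or 2. Of 50 matrix proteases and inhibitors, 27 were higher and 11 lower (median 0.47). The gelatinase Mmp2 went from 346 ± 12 to 835 ± 6.59 FPKM and the macrophage elastase Mmp12 from 37.9 ± 2.17 to 251 ± 28.7. The inhibitor Timp3 fell from 447 ± 21.6 to 194 ± 20.4.

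Contractile genes of myofibroblasts were lower in 21 and higher in 2 of 29 (median -0.60), and their summed FPKM fell from 4725 to 4953 in controls to 2463 to 2552 with IL-4. Smooth muscle actin (Acta2) had 58645, 55701 and 56835 reads in controls and 17394, 18821 and 20377 with IL-4 (log2 fold change -1.44, SE 0.07, adjusted p = 2.10e-06). Calponin (Cnn1, -1.98) and transgelin (Tagln, -1.32) fell too. The myosin kinase Mylk went the other way, from 9.36 ± 0.09 to 28.4 ± 2.54 FPKM with counts that are not whole. Myocd, a coactivator of smooth muscle genes, was also higher, with 9 to 12 reads in controls and 37 to 79 with IL-4. With library totals 25 of these genes were lower and 2 higher.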

How the data were processed

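The 6 libraries of poly-A RNA, sequenced on a BGISEQ-500, were used, with groups and replicate numbers from the labels. The authors filtered reads with SOAPnuke, mapped them to mm10 with HISAT, calculated gene levels with Bowtie2 and RSEM, and deposited expected counts per gene, left without normalization. The FPKM that the authors deposited beside them are relative to transcript length and to the library total. The labels also name StringTie. A gene not listed in a library was taken as 0, and 1 row without a gene name (0.00016% of counts) was left out. After rounding, genes with low counts were removed (edgeR's filterByExpr at a minimum of 10 and a total of 15), and libraries were scaled with TMM and compared with edgeR 4.0.16 (R 4.3.3) by its quasi-likelihood test with Benjamini-Hochberg adjustment. Alternatives used DESeq2 1.42.0 and limma 3.58.1, other scalings, other filters, each library left out in turn and, chosen after seeing the data, control replicate 3 and IL-4 replicate 6 left out together. Figures used Python 3.11.15. The SE of each log2 fold change is the size of the change fitted without a prior count, divided by the square root of the test's F. The printed change includes the prior count, so this SE is approximate. The test was checked on simulated data.

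The members and the 47 gene lists were chosen with earlier results of these data known. Named genes are the 12 largest rises and falls in log2 fold change and the 10 largest in FPKM (adjusted p under 0.05, mean of at least 100 normalized counts, groups not overlapping), each list's anchors and its 3 largest called rises and falls (mean of at least 20), and genes the paper names. Other genes were named after their values were seen.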

Additional observations from a re-analysis of the deposited data

How the results depend on the processing

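No gene called over 2-fold changed direction under an alternative in which it was tested (a minimum count of 50 left 12338 genes), and the counts of upregulated genes (809) and downregulated genes (737) stayed within 1.5 times under DESeq2, other scalings, other count filters and limma on log2(FPKM + 0.1). Limma on log2(FPKM + 1) gave 348 upregulated and 352 downregulated genes, and 1697 higher and 4916 lower at any fold. With log2(FPKM + 0.1), 1694 were higher and 4904 lower. Library totals gave 1704 higher and 4963 lower, so that 25.6% of calls at any fold were higher, against 50.8% with TMM, and 40.6% against 52.3% over 2-fold. A test against a fold of 2 (glmTreat) called 512 up and 350 down. With each library left out in turn, 812 to 835 genes were upregulated and 699 to 738 downregulated, and 2017 to 3199 were higher and 1911 to 3014 lower, most without IL-4 replicate 6. Of 300 named genes, 3 to 23 lost their call and 0 to 12 gained one, depending on the alternative, and none reversed. With library totals, 8 of the 47 lists changed the balance of higher and lower members. No paired analysis was possible because the labels number controls 1 to 3 and IL-4 cultures 4 to 6, so the groups share no replicate number. With 3 libraries a group, counting limits the precision of genes under about 10 reads. Differences between libraries add to it, as in the control reads of Chil4 (0, 1 and 21).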
